A study of Mus musculus with 9 samples.

Results

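The 9 genes for the chloride and potassium channels and the cotransporter that move fluid into a tubule lumen, together with further anoctamins, were followed in mouse kidneys that had lost Pkd2 alone or with Ift88. They are Cftr, Slc12a2, Ano1, Ano3, Ano6, Ano10, Kcnn4, Kcnq1 and Clcn2, found by symbol as 9 of the 22161 genes in the expression table. The genes were chosen by name for their roles and from earlier results of these same comparisons, in which Ano3 had passed the test. Their levels and differences are therefore given as a description, without p-values, and nothing is rested on them.

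Kidneys of 9 mice on a C57BL/6 background were profiled by poly(A) RNA sequencing, 3 in each of 3 groups. Double knockout mice were Ift88fl/fl;Pkd2fl/fl;Pax8rtTA;TetO-cre, Pkd2 knockout mice were Pkd2fl/fl;Pax8rtTA;TetO-cre, and wild type mice are labelled as such with no floxed allele or transgene named. Every mouse, wild type included, drank doxycycline (2 mg/ml) over 2 weeks starting on postnatal day 28. The drug switches on cre through the Pax8 driver of kidney tubule epithelium. Tissue was collected at an age of 10 weeks, which is postnatal day 70. Single mice are written as DKO, KO or WT (double knockout, Pkd2 knockout, wild type) with their replicate number.

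Polycystin-2, the product of Pkd2, is a cation channel whose loss causes an inherited form of polycystic kidney disease, and cilia cannot be built without the product of Ift88. Cysts of the human disease enlarge partly through chloride secretion. The cotransporter NKCC1 (Slc12a2) brings chloride in at the basolateral side, channels such as CFTR and the calcium-activated anoctamin-1 let it out into the lumen, and basolateral potassium channels keep the cell negative enough for chloride to leave. Sodium and water follow. Anoctamins are a family that holds both calcium-activated chloride channels and phospholipid scramblases.

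RefSeq promoter windows (GRCm38.p6, 250 bases before to 50 after a start) were matched by symbol for 7 of the 9 genes and searched, and those of Kcnq1 and Slc12a2 are not shown. The windows of Ano3 and Kcnn4 are printed because these genes had the largest fold differences described, and that of Cftr because it is the archetypal secretory channel. Capitals mark matches, on either strand, to the TATA box TATAAA, the CCAAT box, the GC box GGGCGG, the AP-1 motif TGANTCA, the cAMP response element TGACGTCA, the STAT motif TTCNNNGAA or the cell cycle (CHR) motif TTTGAA.
Ano3 start 1, chr2:110950195-110950494, minus strand: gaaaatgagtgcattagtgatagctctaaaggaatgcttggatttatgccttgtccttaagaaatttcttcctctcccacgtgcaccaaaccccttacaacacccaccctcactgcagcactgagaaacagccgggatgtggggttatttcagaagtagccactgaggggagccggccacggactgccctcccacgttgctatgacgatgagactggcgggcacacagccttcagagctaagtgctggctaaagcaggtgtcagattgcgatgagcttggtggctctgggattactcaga
Ano3 start 2, chr2:110840010-110840309, minus strand: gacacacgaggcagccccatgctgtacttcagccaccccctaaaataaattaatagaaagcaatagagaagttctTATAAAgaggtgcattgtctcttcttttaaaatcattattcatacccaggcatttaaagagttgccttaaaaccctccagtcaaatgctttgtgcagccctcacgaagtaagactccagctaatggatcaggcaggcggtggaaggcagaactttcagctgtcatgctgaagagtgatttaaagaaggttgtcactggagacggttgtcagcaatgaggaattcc
Kcnn4, chr7:24370013-24370312, plus strand: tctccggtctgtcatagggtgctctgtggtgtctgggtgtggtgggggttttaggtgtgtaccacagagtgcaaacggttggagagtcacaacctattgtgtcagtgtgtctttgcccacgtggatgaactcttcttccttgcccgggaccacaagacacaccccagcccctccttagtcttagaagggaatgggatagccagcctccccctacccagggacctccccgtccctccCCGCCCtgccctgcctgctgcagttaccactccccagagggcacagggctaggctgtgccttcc
Cftr, chr6:18170437-18170736, plus strand: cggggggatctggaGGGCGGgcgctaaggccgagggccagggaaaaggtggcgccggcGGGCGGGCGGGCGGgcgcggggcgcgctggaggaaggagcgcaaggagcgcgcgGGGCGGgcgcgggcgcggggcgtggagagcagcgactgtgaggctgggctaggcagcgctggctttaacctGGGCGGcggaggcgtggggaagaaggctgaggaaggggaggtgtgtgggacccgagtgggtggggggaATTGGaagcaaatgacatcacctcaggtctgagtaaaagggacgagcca

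G and C bases made up 52% and 43.7% of the Ano3 windows, 59.7% of the Kcnn4 window and 71.3% of the Cftr window. GC boxes were found in 6 of the 7 genes, all but Ano3, and in 35.7% of 32851 RefSeq mouse windows of 300 bases. Cftr had 6, some of which overlap, Ano10 had 5, Ano1 had 4, Ano6 had 3, and Clcn2 and Kcnn4 had 1 each. The second Ano3 window had 1 TATAAA, a motif in 13.6% of all windows, and the first Ano3 window had no match to any of the 7 motifs. Of all windows 37.4% held CCAAT, which the Cftr and Clcn2 windows also held, 17.9% the CHR motif, 8.3% the STAT motif, 7.81% the AP-1 motif and 1.79% the cAMP response element, and none of these last 4 was in the windows of the 7 genes. These matches describe the letters in the windows and not binding.

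Values are the authors' normalized counts, whose totals ran from 40454151 to 42874467 per library, with 37056843 to 47314829 reads in the 7 libraries for which reads could be recovered. Pkd2 averaged 4687 ± 789 normalized counts in double knockout, 5118 ± 414 in Pkd2 knockout and 14095 ± 375 in wild type kidneys (SD, n = 3 each). Ift88 averaged 752 ± 71.4 in double knockout, 1140.2 ± 66.0 in Pkd2 knockout and 1085 ± 41.0 in wild type kidneys, so the levels of the deleted genes follow the labels. The 7 proximal tubule markers summed to between 513554 and 598557 in every library, so markers of the labelled tissue were present in all 9. Mouse names of KO 3 and WT 3 carry other prefixes than the rest of their groups. In KO 3 erythroid markers were 2.45 and adipose and adrenal markers 1.18 above the wild type mean (mean log2 difference). Both values were the highest of the 9 libraries. No prefix is shared between Pkd2 knockout and wild type mice, so no comparison of these groups can be made within a prefix. What the prefixes stand for is not given in the sources used here.

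The groups were compared with limma on log2(normalized count + 1) in 15740 genes whose mean reached 10, and a gene was called where its Benjamini-Hochberg adjusted p over all of them was below 0.05. All 9 genes passed the filter. In Pkd2 knockout against wild type kidneys 1 of the 9 was called, Ano3, beside 2.4% of all tested genes, and the groups of 2 of the 9, Ano3 and Kcnq1, did not overlap, beside 25.2% of all tested genes. There DESeq2 called Ano3 and edgeR did not, and limma had 2 of the 9 higher and 1 lower at an unadjusted p below 0.05. In double knockout against Pkd2 knockout kidneys limma, edgeR and DESeq2 each called 0 of the 9, as did an unadjusted p below 0.05, beside 0.394% called by limma among all genes. Ano6 alone did not overlap there, beside 15.2% of all genes. In double knockout against wild type kidneys limma and edgeR called 0 of the 9, DESeq2 called 1, Ano3, and 1 had an unadjusted p below 0.05, beside 0.229% called by limma among all genes. The groups of 1 of the 9, Ano3, did not overlap there, beside 18.3% of all genes. At an unadjusted p below 0.05 stood 10.7% of all tested genes in double knockout against Pkd2 knockout, 11.7% in double knockout against wild type and 18% in Pkd2 knockout against wild type kidneys. The genes were picked with these contrasts known, so nothing is read from these shares.

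The median log2 fold change of the 9 genes was -0.0862 in double knockout over Pkd2 knockout, -0.0631 in double knockout over wild type and 0.0231 in Pkd2 knockout over wild type. Over all tested genes these medians were 0.00463, -0.00105 and 0.00426. The comparisons share libraries, so their values stand side by side and are not independent.

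**Figure D1:**
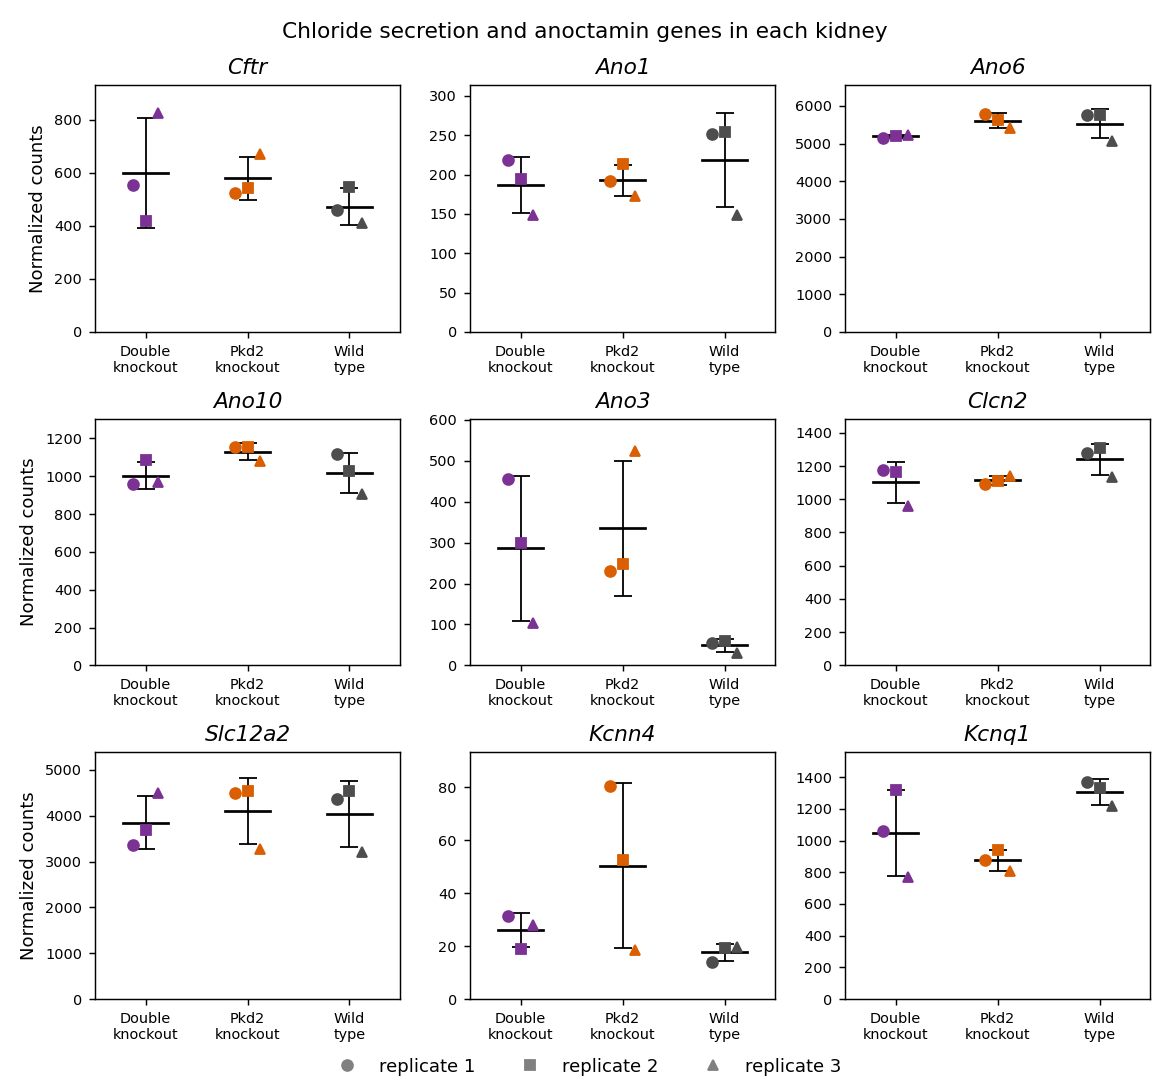
Normalized counts (vertical axes, from 0) of the 9 genes in double knockout, Pkd2 knockout and wild type kidneys; each point is 1 mouse with its shape giving the replicate number, bars are means and whiskers SD (n = 3). Ano3 lies between 103 and 523 in all 6 mutant kidneys and between 31.6 and 60.8 in wild type, whereas groups of most other genes overlap.

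Cftr encodes the cAMP-activated chloride channel of the luminal membrane. It had 554, 419 and 825 normalized counts in double knockout kidneys, 522, 542 and 672 in Pkd2 knockout kidneys and 460.0, 548 and 409 in wild type kidneys. All 3 groups overlapped, and DKO 3 was the highest of the 9 libraries. The log2 fold change was 0.00 (95% interval -0.51 to 0.52) in double knockout over Pkd2 knockout, 0.30 (-0.22 to 0.81) in double knockout over wild type and 0.29 (-0.22 to 0.81) in Pkd2 knockout over wild type. None was called. On the linear scale the last interval runs from 0.858 to 1.75 times wild type. In whole kidney RNA, fewer cells of a type and less RNA per cell cannot be told apart, for Cftr and for every gene that follows.

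Ano1, the calcium-activated chloride channel TMEM16A, had 219, 194 and 149 normalized counts in double knockout kidneys, 192, 213 and 173 in Pkd2 knockout kidneys and 252, 255 and 149 in wild type kidneys. The groups overlapped, with WT 3 and DKO 3 lowest. Its log2 fold change was -0.05 (95% interval -0.57 to 0.47) in double knockout over Pkd2 knockout, -0.20 (-0.72 to 0.32) in double knockout over wild type and -0.15 (-0.67 to 0.37) in Pkd2 knockout over wild type. None of these was called.

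Ano6, a calcium-activated phospholipid scramblase that also conducts ions, had the narrowest intervals of the 9 genes. It had 5151, 5189.5 and 5226 normalized counts in double knockout kidneys, 5795, 5611 and 5403 in Pkd2 knockout kidneys and 5751, 5755 and 5078 in wild type kidneys. Every double knockout kidney lay below every Pkd2 knockout kidney, while WT 3 lay below both groups. The log2 fold change was -0.11 ± 0.07 (SE) in double knockout over Pkd2 knockout, with a 95% interval of -0.26 to 0.04, and was not called. In Pkd2 knockout over wild type it was 0.02 (-0.13 to 0.17).

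Ano10, an anoctamin mutated in a human recessive ataxia, had 956, 1084 and 969 normalized counts in double knockout kidneys, 1153, 1156 and 1080.1 in Pkd2 knockout kidneys and 1118, 1027 and 908 in wild type kidneys. DKO 2 lay just above KO 3, and the wild type range covered the whole double knockout group and, of the Pkd2 knockout group, KO 3 alone. The log2 fold change was -0.17 (95% interval -0.38 to 0.04) in double knockout over Pkd2 knockout, -0.02 (-0.23 to 0.19) in double knockout over wild type and 0.16 (-0.06 to 0.37) in Pkd2 knockout over wild type, none called.

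Ano3 showed the one large difference among the 9. It encodes an anoctamin known mainly from neurons, where in the rat it modulates a sodium-activated potassium channel, and human variants cause dystonia. It had 456, 298 and 103 normalized counts in double knockout kidneys, 231, 249 and 523 in Pkd2 knockout kidneys and 54.2, 60.8 and 31.6 in wild type kidneys. Every mutant kidney lay above every wild type kidney, and both mutant groups spread widely, with coefficients of variation of 62.0% in double knockout and 49.0% in Pkd2 knockout kidneys, against 31.4% in wild type.

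In Pkd2 knockout over wild type the Ano3 log2 fold change was 2.70 ± 0.53 (SE, n = 3 each), which is 6.49-fold with a 95% interval of 2.82 to 14.9, and limma called it. In double knockout over wild type it was 2.33 ± 0.53, or 5.03-fold (2.19 to 11.6), and was not called. Double knockout and Pkd2 knockout differed by -0.37 (-1.57 to 0.83), an interval that holds differences in either direction. The Pkd2 knockout call was lost without KO 1, KO 2, KO 3, DKO 2, WT 1, WT 2 or WT 3, with log2 fold changes between 2.32 and 2.91 over all 9 such fits. It was also lost with the replicate number as a block, without the intensity trend, and with edgeR or limma on 7 libraries, and kept with DESeq2. Without both KO 3 and WT 3 the log2 fold change was 2.04 and was not called. Without DKO 3 the double knockout difference from wild type, 2.94, was called, as it was with DESeq2.

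Ano3 lies on the minus strand of chromosome 2 beside Slc5a12, which is on the opposite strand in GENCODE M21 and encodes a low-affinity lactate transporter of the proximal tubule. Slc5a12, singled out for this position after its values were seen, had 17159.7, 28153 and 17796.5 normalized counts in double knockout kidneys, 22918, 26026 and 21365 in Pkd2 knockout kidneys and 10426, 10789.5 and 12918 in wild type kidneys. Both mutant groups lay above wild type. It rose in Pkd2 knockout over wild type by a log2 fold change of 1.04 ± 0.18 (SE, limma adjusted p = 0.0252), and its difference in double knockout over wild type, 0.85 ± 0.18, was not called (limma adjusted p = 0.128). The Slc5a12 call was lost without KO 1, KO 2, WT 1 or WT 2 (highest limma adjusted p = 0.0999).

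Ano3 counts were 2.66%, 1.06% and 0.576% of Slc5a12 counts in DKO 1, 2 and 3, 1.01%, 0.955% and 2.45% in KO 1, 2 and 3, and 0.520%, 0.564% and 0.244% in WT 1, 2 and 3. All 6 mutant kidneys were above all 3 wild type kidneys in this ratio, DKO 3 by little. Whether counting used strand is not given in the sources used here, so reads of the 2 neighbours that reach past a gene's end cannot be told apart, and their part in the Ano3 counts was not tested. Muc15, a mucin gene inside Ano3 on the opposite strand, had at most 1.13 normalized counts in any library. Of the other neighbours, Fibin averaged 122 ± 20.9 in double knockout, 93.9 ± 23.9 in Pkd2 knockout and 136 ± 21.6 in wild type kidneys, and Bbox1 averaged 70.1 ± 35.1 in double knockout, 65.0 ± 8.72 in Pkd2 knockout and 40.3 ± 5.68 in wild type kidneys.

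Of the 7 proximal tubule markers, of which Slc5a12 is one, 1 was called higher (Slc5a12) and 1 lower (Miox) in Pkd2 knockout against wild type kidneys. Their summed counts ran from 540209 to 598557 in double knockout, from 547620 to 552628 in Pkd2 knockout and from 513554 to 554459 in wild type kidneys. Neural markers, of which 4 of 5 were in the table, summed to 15.3 to 21.7 normalized counts in double knockout, 21.4 to 37.7 in Pkd2 knockout and 37.2 to 53.0 in wild type kidneys. As the mean log2 difference from wild type these markers ran from -1.36 to -0.45 in double knockout, -1.21 to 0.19 in Pkd2 knockout and -0.18 to 0.25 in wild type kidneys. The Pkd2 knockout and wild type groups overlapped, and the double knockout and wild type groups did not. Only 1 of the 4 neural markers passed the filter, so these values rest on genes with few counts.

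**Figure D2:**
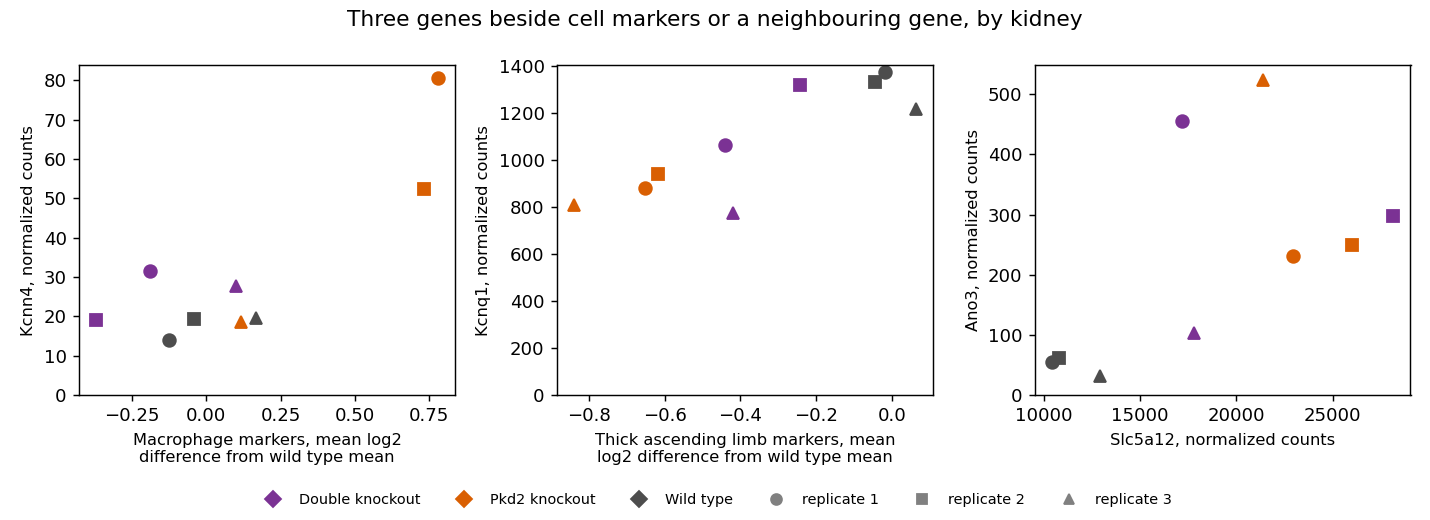
Normalized counts (vertical axes, from 0) of Kcnn4 against macrophage markers, Kcnq1 against thick ascending limb markers and Ano3 against its neighbour Slc5a12; markers are the mean log2 difference from the wild type mean, each point is 1 kidney, colours give the group and shapes the replicate. KO 1 and KO 2 are highest in both Kcnn4 and macrophage markers, the 3 wild type kidneys are highest in thick ascending limb markers, and wild type is lowest in both Ano3 and Slc5a12.

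Clcn2 encodes a chloride channel opened by hyperpolarization. It had 1175, 1166 and 961 normalized counts in double knockout kidneys, 1091, 1108 and 1139.5 in Pkd2 knockout kidneys and 1279.5, 1306 and 1135 in wild type kidneys. WT 1 and WT 2 were highest, and WT 3 lay just below KO 3. Its log2 fold change was -0.02 (95% interval -0.24 to 0.20) in double knockout over Pkd2 knockout, -0.18 (-0.39 to 0.04) in double knockout over wild type and -0.15 (-0.37 to 0.06) in Pkd2 knockout over wild type, none called. Clcn2 overlaps Fam131a and Polr2h on the opposite strand.

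Slc12a2, the sodium-potassium-chloride cotransporter NKCC1 that loads secreting cells with chloride, had 3361, 3697 and 4488 normalized counts in double knockout kidneys, 4495, 4533 and 3274 in Pkd2 knockout kidneys and 4369, 4540.0 and 3206 in wild type kidneys. Replicates 1 and 2 were high and replicate 3 low in both the Pkd2 knockout and the wild type group. The ratio of Pkd2 knockout to wild type was 1.01 over replicates 1 and 2 and 1.02 in replicate 3. The log2 fold change was -0.09 (95% interval -0.48 to 0.31) in double knockout over Pkd2 knockout, -0.06 (-0.46 to 0.33) in double knockout over wild type and 0.02 (-0.37 to 0.42) in Pkd2 knockout over wild type, none called.

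Kcnn4, the intermediate-conductance calcium-activated potassium channel of secretory epithelia and of immune cells, was high in 2 kidneys only. It had 31.5, 19.0 and 27.8 normalized counts in double knockout kidneys, 80.4, 52.3 and 18.5 in Pkd2 knockout kidneys and 14.1, 19.2 and 19.6 in wild type kidneys. KO 1 and KO 2 stood above all other libraries, and KO 3 was inside the wild type range. The log2 fold change was -0.73 ± 0.48 (SE) in double knockout over Pkd2 knockout, 0.53 ± 0.48 in double knockout over wild type and 1.25 ± 0.48 in Pkd2 knockout over wild type, none called.

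For Kcnn4 the mean of KO 1 and KO 2 was 4.0 times that of WT 1 and WT 2, and KO 3 was 0.945 times WT 3. Of 21 alternative settings 2 called the difference between Pkd2 knockout and wild type, at a log2 fold change of 1.84 without KO 3 and of 1.92 without both KO 3 and WT 3. It was 0.81 without KO 1, 1.11 without KO 2 and 0.66 with limma on 7 libraries, none of these called. Macrophage markers, too, were highest in KO 1 and KO 2. Their mean log2 difference from wild type was -0.19, -0.37 and 0.10 in DKO 1, 2 and 3, and 0.78, 0.73 and 0.12 in KO 1, 2 and 3. It was -0.13, -0.04 and 0.17 in WT 1, 2 and 3, a range that holds KO 3. Of 7 markers 6 were in the table, none of them called in Pkd2 knockout against wild type kidneys by limma. At an unadjusted p below 0.05 limma had 3 of them, beside 18% of all tested genes. Their summed counts ran from 4382 to 4822 in double knockout, 4989 to 6143 in Pkd2 knockout and 4247 to 4772 in wild type kidneys, and none was at 0.

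Lymphocyte markers were at 0.10, -0.82 and 1.12 in DKO 1, 2 and 3 and at 0.75, 1.24 and 0.04 in KO 1, 2 and 3 (mean log2 difference from wild type). In wild type kidneys lymphocyte markers ran from -0.53 to 0.40, and their summed counts over all libraries ran from 89.7 in DKO 2 to 349 in KO 2. DKO 3, high in these markers, had 27.8 normalized counts of Kcnn4, above its wild type range of 14.1 to 19.6. DKO 1, with lymphocyte markers inside their wild type range, had more Kcnn4, at 31.5. Fibroblast markers were at -0.46, -0.38 and -0.29 in DKO 1, 2 and 3 and at 0.83, 0.73 and 0.27 in KO 1, 2 and 3, highest in KO 1 and KO 2. Proliferation markers were at 0.13, 0.55 and 1.14 in DKO 1, 2 and 3 and at 2.25, 2.44 and 2.49 in KO 1, 2 and 3, KO 3 included. The part of macrophages, lymphocytes or fibroblasts in the Kcnn4 counts was not tested.

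Kcnq1, a voltage-gated potassium channel subunit that serves secretion in many epithelia, was lower in every Pkd2 knockout kidney than in any wild type kidney, though not called. It had 1061, 1317 and 771 normalized counts in double knockout kidneys, 878, 940.1 and 809 in Pkd2 knockout kidneys and 1371, 1331 and 1216 in wild type kidneys. Double knockout kidneys spread over both ranges, with DKO 3 lowest of all 9 libraries. The log2 fold change was 0.23 (95% interval -0.15 to 0.61) in double knockout over Pkd2 knockout, -0.35 (-0.73 to 0.03) in double knockout over wild type and -0.58 (-0.96 to -0.20) in Pkd2 knockout over wild type.

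Of 22 alternative settings 2 called the Kcnq1 difference between Pkd2 knockout and wild type. These were the fit without DKO 3 and the fit of these 2 groups alone, in both cases at -0.58. Over all 22 the log2 fold change ran from -0.63 to -0.52, and edgeR and DESeq2 did not call it. The ratio of Pkd2 knockout to wild type for Kcnq1 was 0.673 over replicates 1 and 2 and 0.665 in replicate 3. Thick ascending limb markers were also lower in every Pkd2 knockout kidney than in any wild type kidney. They averaged -0.44, -0.24 and -0.42 in DKO 1, 2 and 3 and -0.65, -0.62 and -0.84 in KO 1, 2 and 3 (mean log2 difference from wild type). Of the 7, 4 were called lower in Pkd2 knockout against wild type kidneys (Slc12a1, Umod, Ptger3 and Egf). Summed counts of all 7 ran from 224242 to 292735 in double knockout, 169747 to 207210 in Pkd2 knockout and 357879 to 375391 in wild type kidneys. DKO 3, lowest of all libraries for Kcnq1, was level with DKO 1 in these markers and above every Pkd2 knockout kidney. Principal cell markers averaged 0.02, 0.14 and -0.30 in DKO 1, 2 and 3 and -0.04, -0.01 and -0.29 in KO 1, 2 and 3. In wild type kidneys they ran from -0.07 to 0.14, overlapping both mutant groups. Limma called none of the 6 tested in Pkd2 knockout against wild type kidneys, all 6 with lower estimates. The groups of 5 of these did not overlap, beside 25.2% of all tested genes. The part of either cell type in the Kcnq1 difference was not tested. Kcnq1 is overlapped on the opposite strand by Kcnq1ot1, which is not analysed here, and the 2 cannot be told apart if counting ignored strand.

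**Figure D3:**
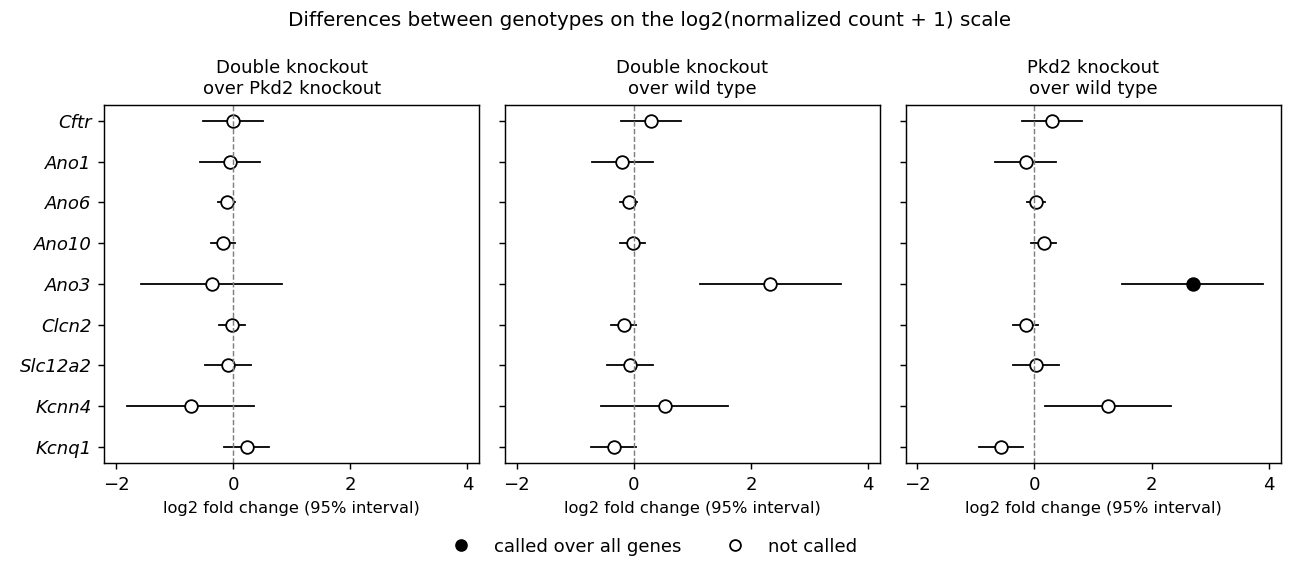
Log2 fold change (horizontal axes, on the log2(normalized count + 1) scale) of each of the 9 genes in double knockout over Pkd2 knockout, double knockout over wild type and Pkd2 knockout over wild type; points are limma estimates, lines 95% intervals and filled points were called over all genes. Ano3 in Pkd2 knockout over wild type, at 2.70, is the only filled point, and the intervals of Cftr, Ano1, Ano6, Ano10, Clcn2 and Slc12a2 include 0 in all 3 panels.

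Replicate 3 was the lowest of its group in both Pkd2 knockout and wild type kidneys for 5 of the 9 genes (Ano1, Ano6, Ano10, Slc12a2 and Kcnq1), or 55.6%, beside 15.4% of all tested genes. It was the highest in both groups for none of the 9 and for 15.2% of all tested genes. The ratio of Pkd2 knockout to wild type for replicates 1 and 2 and for replicate 3 was 1.06 and 1.64 for Cftr, 0.799 and 1.16 for Ano1, 0.991 and 1.06 for Ano6 and 1.08 and 1.19 for Ano10. It was 0.851 and 1.0 for Clcn2 and 4.17 and 16.6 for Ano3. The replicate 3 ratios set 1 mouse against 1 mouse, of unlike name prefixes, and the labels state no pairing of mice by number.

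The other genes of these pathways were taken from 9 lists of 159 genes, of which 153 were in the table and 139 passed the filter. These lists, too, were drawn up with earlier results known. Nothing is therefore read from their shares, and the adjusted p-values of their genes are given as a description. In Pkd2 knockout against wild type kidneys 2 of the 139 rose and 6 fell, or 5.76% called, beside the 2.4% of all genes given above, and their median log2 fold change was -0.0921. In double knockout against wild type kidneys 1 fell and none rose, with a median of -0.0863. In double knockout against Pkd2 knockout kidneys limma and edgeR called 0, DESeq2 called 1, and 25 had an unadjusted p below 0.05, 17 higher and 8 lower, beside the 10.7% of all tested genes given above, with a median of 0.0368.

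Anion exchangers and carbonic anhydrases included the steadiest change. Slc26a7, an anion exchanger of the acid-secreting collecting duct cells, had 162, 149.5 and 179 normalized counts in double knockout kidneys, 143, 152 and 144 in Pkd2 knockout kidneys and 299, 343 and 282 in wild type kidneys. It fell in Pkd2 knockout by a log2 fold change of -1.06 ± 0.13 (SE, limma adjusted p = 0.00525) and in double knockout by -0.91 ± 0.13 (limma adjusted p = 0.0319), both against wild type, with no overlap. The first call held without each one of the 9 libraries, and the second was lost without KO 1, KO 2, DKO 1, DKO 2, WT 1 or WT 2 (highest limma adjusted p = 0.168). Intercalated cell markers averaged 0.27, 0.12 and -0.13 in DKO 1, 2 and 3 and -0.25, -0.27 and -0.40 in KO 1, 2 and 3 (mean log2 difference from wild type). Of the 7, Atp6v1g3 alone was called in Pkd2 knockout against wild type kidneys, as lower. At an unadjusted p below 0.05 limma had 5 of the 7 lower there, beside 18% of all tested genes in either direction. None was called in double knockout against wild type by limma, with 2 higher at an unadjusted p below 0.05. The part of these cells in the Slc26a7 difference was not tested.

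Of the 18 tested genes of that list the other 17 were not called in Pkd2 knockout against wild type kidneys. At an unadjusted p below 0.05 limma had 2 of the 18 higher and 8 lower, Slc26a7 included, beside 18% of all tested genes. The groups of 12 of the 18 did not overlap, beside 25.2% of all tested genes. Slc26a4, the chloride-bicarbonate exchanger pendrin, had 4159.7, 4362 and 3066 normalized counts in double knockout kidneys, 2371, 2478 and 2234 in Pkd2 knockout kidneys and 3090.4, 3154 and 2929 in wild type kidneys. Every double knockout kidney was above every Pkd2 knockout kidney. Its log2 fold change in double knockout over Pkd2 knockout was 0.69 ± 0.12 and missed the threshold (limma adjusted p = 0.0573). It passed in 3 of 22 alternative settings. These were DESeq2 (adjusted p = 0.00863), limma without DKO 3 (adjusted p = 0.00619) and limma with a pseudocount of 10 (adjusted p = 0.0491). It did not pass with edgeR (adjusted p = 0.327) or with limma on the same 7 libraries (adjusted p = 0.3345). Slc26a4 is itself one of the intercalated cell markers. It was singled out after its values were seen, so its p-values are a description. Slc4a4, the sodium bicarbonate cotransporter of the proximal tubule, averaged 68513 ± 4535 in double knockout, 66705 ± 1695 in Pkd2 knockout and 61070.2 ± 8764 in wild type kidneys and was not called.

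Among the cation-chloride cotransporters and the WNK and SPAK kinases that switch them on, 2 of 18 fell in Pkd2 knockout against wild type kidneys. Slc12a1, the NKCC2 cotransporter by which the thick ascending limb absorbs salt, averaged 56021 ± 8532 normalized counts in double knockout, 41496 ± 1775 in Pkd2 knockout and 75839 ± 5488 in wild type kidneys. Its fall, -0.87 ± 0.12 on the log2 scale (limma adjusted p = 0.00929), was lost without WT 2 (limma adjusted p = 0.0542). It is itself one of the thick ascending limb markers given beside Kcnq1. Stk39, which encodes the kinase SPAK, fell by -0.42 ± 0.08 (limma adjusted p = 0.0368).

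Slc12a3, the cotransporter of the distal convoluted tubule, had 22312 to 31263 normalized counts in double knockout, 22950.2 to 23194 in Pkd2 knockout and 26959 to 37754 in wild type kidneys. It was not called in Pkd2 knockout over wild type (log2 fold change -0.49 ± 0.15, limma adjusted p = 0.135). Slc12a2, the secretory relative of Slc12a1, had a log2 fold change of 0.02 in that contrast, as given above. The Stk39 call was lost without KO 1, KO 2, KO 3, DKO 1, DKO 2, WT 1 or WT 2 (highest limma adjusted p = 0.14).

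Other chloride channels and their subunits gave 2 higher and 1 lower of 19 in Pkd2 knockout against wild type kidneys. Clcn5, the endosomal chloride-proton exchanger mutated in Dent disease, rose by 0.35 ± 0.07 on the log2 scale (limma adjusted p = 0.0342), with 9175 to 9869 normalized counts in double knockout, 9767 to 11296 in Pkd2 knockout and 8191 to 8404 in wild type kidneys. Ostm1, the subunit of the lysosomal ClC-7 exchanger, rose by 0.32 ± 0.07 (limma adjusted p = 0.0496). Clcn3 was not called, at 0.09 ± 0.07.

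These 2 rises were less steady than the fall of Slc26a7: that of Clcn5 was lost without KO 1, KO 2, DKO 2 or any wild type mouse (highest limma adjusted p = 0.136), and that of Ostm1 without any 1 of the 9 mice (highest 0.192).

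Of 17 other epithelial potassium channels and subunits 1 fell in Pkd2 knockout against wild type kidneys. Kcnn2, a small-conductance calcium-activated relative of Kcnn4, had 69.2, 79.7 and 69.0 normalized counts in double knockout kidneys, 39.7, 44.9 and 47.8 in Pkd2 knockout kidneys and 92.4, 114 and 87.1 in wild type kidneys. The 3 groups did not overlap, with double knockout between the others. It fell in Pkd2 knockout against wild type by -1.12 ± 0.18 on the log2 scale (limma adjusted p = 0.0171), a call lost without KO 1, KO 2, WT 1 or WT 2 (highest limma adjusted p = 0.0796). Its difference in double knockout over Pkd2 knockout, 0.71 ± 0.18, was not called (limma adjusted p = 0.155). Kcnj15 was not called in that or the other contrasts, at 0.14 ± 0.11 in Pkd2 knockout over wild type.

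Of 20 genes for ATP receptors and calcium release, which feed the calcium-activated anoctamins, 1 fell in Pkd2 knockout against wild type kidneys. P2ry1, a receptor for ADP, fell by -0.82 ± 0.17 on the log2 scale (limma adjusted p = 0.0399), with 232 to 289 normalized counts in double knockout, 151 to 189 in Pkd2 knockout and 258 to 373 in wild type kidneys. The call was lost without KO 1, KO 2, KO 3, DKO 1 or any wild type mouse (highest limma adjusted p = 0.119). Itpr1, the inositol trisphosphate receptor that releases calcium, was not called, at -0.02 ± 0.08.

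In Pkd2 knockout against wild type kidneys limma called none of the 11 genes of the sodium pump, none of the 17 genes of CFTR scaffolds, kinases and cAMP inputs and none of the 15 genes of sodium and water absorption. At an unadjusted p below 0.05 these lists held 1 higher and 2 lower, 1 higher and 0 lower, and 0 higher and 3 lower genes in turn, beside the 18% of all tested genes given above, and edgeR and DESeq2 called 0 in each. Pdzk1, a scaffold of luminal transporters, had a log2 fold change of -0.19 ± 0.12, and the water channel Aqp1 had -0.27 ± 0.12.

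Of the 6 other mouse anoctamins, Ano2 and Ano7 were below the filter, with means over all libraries of 2.45 and 0.461 normalized counts. The 4 tested were Ano4, Ano5, Ano8 and Ano9, and limma, edgeR and DESeq2 called 0 of them in every comparison. At an unadjusted p below 0.05 limma had 2 of them lower in double knockout against wild type kidneys, beside the 11.7% of all tested genes given above in either direction, and 0 in the other comparisons. Ano4 averaged 35.7 ± 12 normalized counts in double knockout, 49.0 ± 5.67 in Pkd2 knockout and 69.5 ± 21.9 in wild type kidneys. Ano5 averaged 73.4 ± 9.97 in double knockout, 86.6 ± 34.3 in Pkd2 knockout and 113 ± 5.96 in wild type kidneys. Ano8, which tethers the endoplasmic reticulum to the plasma membrane, averaged 383 ± 51.8 in double knockout, 385 ± 23.7 in Pkd2 knockout and 434 ± 18.3 in wild type kidneys. Ano9 averaged 219 ± 8.32 in double knockout, 242 ± 9.78 in Pkd2 knockout and 257 ± 24.5 in wild type kidneys. All 4 had lower means in the mutant groups than in wild type, without passing the test.

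**Figure D4:**
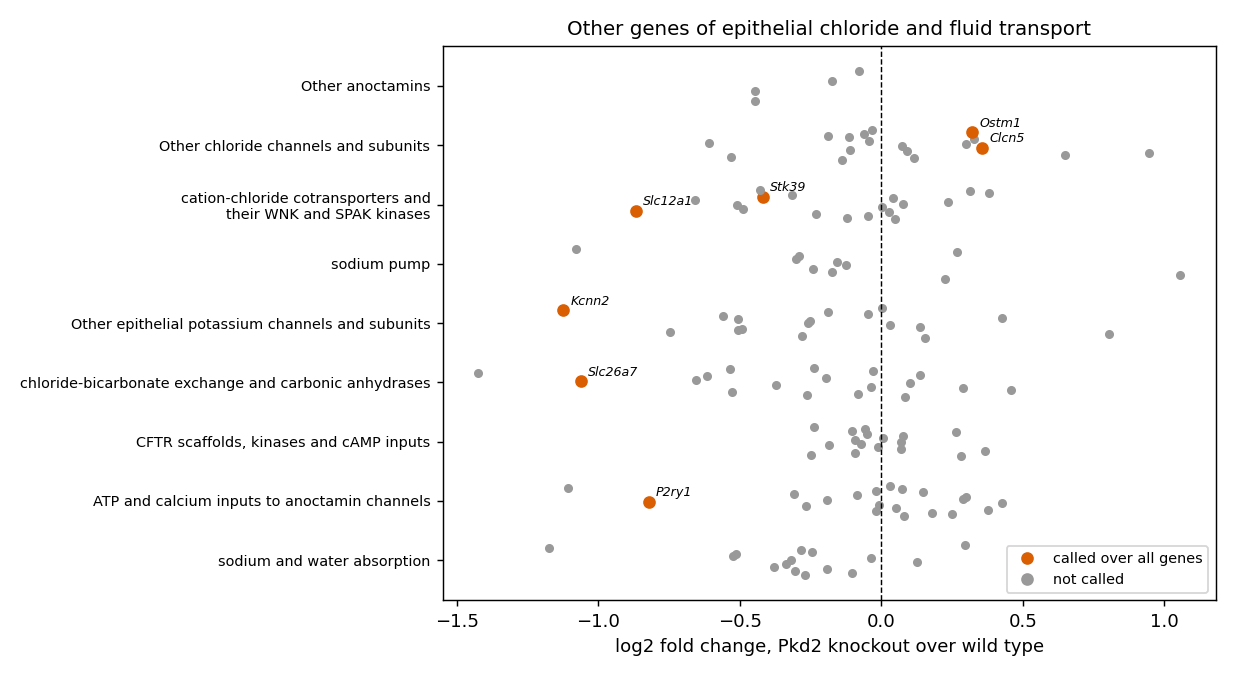
Log2 fold change in Pkd2 knockout over wild type kidneys (horizontal axis) of 137 of the 139 tested genes in 9 lists of epithelial chloride and fluid transport (rows); each point is 1 gene and named points were called by limma over all genes. Slc26a7 at -1.06, Kcnn2 at -1.12 and Slc12a1 at -0.87 are the called genes farthest to the left, and Clcn5 and Ostm1 the only called genes to the right.

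Genes whose log2 levels ran most like those of each gene over the 9 libraries were taken from 13119 genes whose mean reached 50, by Pearson's r. These are descriptions over libraries that share the 3 genotypes, and the highest of so many coefficients is large by selection. Ano3 ran most like Slc5a9 (r = 0.981), a sodium-dependent sugar transporter with 2257, 2212 and 1600.4 normalized counts in double knockout kidneys, 2079, 1997 and 2244 in Pkd2 knockout kidneys and 1562, 1539 and 1333 in wild type kidneys. Fam149a (0.973) and Tsc1 (0.972) came next. WT 3 was the lowest library for both Slc5a9 and Ano3, whereas DKO 1 was the highest for Slc5a9 and KO 3 for Ano3.

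Kcnn4 ran most like Tlr4 (r = 0.95), the receptor for bacterial lipopolysaccharide, which had 159.8, 165 and 185 normalized counts in double knockout kidneys, 319, 233 and 154 in Pkd2 knockout kidneys and 141, 157 and 145 in wild type kidneys. Prkab2 (0.945) and Myo9b (0.943) followed. KO 1 and KO 2 were the highest libraries for Tlr4 as for Kcnn4. Kcnq1 ran most like Fam81a (0.971), Tmem52b (0.965) and Slc44a3 (0.963). Tmem52b had 10204, 10633 and 6879 normalized counts in double knockout kidneys, 7328, 7537 and 6720.1 in Pkd2 knockout kidneys and 11736, 10684 and 10056 in wild type kidneys, with DKO 3 near the Pkd2 knockout range as for Kcnq1.

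Cftr ran most like the transcript 4930506M07Rik (r = 0.968), Zdhhc17 (0.948) and Iigp1 (0.94). Iigp1, an interferon-inducible GTPase, had 471, 253 and 1229.5 normalized counts in double knockout kidneys, 553, 639 and 619.96 in Pkd2 knockout kidneys and 365, 606 and 308 in wild type kidneys, with DKO 3 highest as for Cftr. Among the nearest genes were, for Ano1, Neurl1b (0.972), Ptprs (0.968) and Cdh4 (0.965), for Ano6 Ccdc122 (0.975) and Eif2ak2 (0.97), and for Ano10 Mamld1 (0.942), Mylk3 (0.928) and Gm17414 (0.927). Clcn2 was nearest to Tenm4 (0.959), Maob (0.958) and Mvk (0.952), and Slc12a2 to Slc6a15 (0.943), Asns (0.917) and Uhmk1 (0.916).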

How the data were processed

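Poly(A) RNA of whole kidneys from 9 mice was sequenced on an Illumina instrument, per the labels' protocols. Per the submitters' processing notes, the tools were STAR 2.5.0 (an aligner), HTSeq 0.6.1 (a read counter) and DESeq2, whose version, like the build, gene models and strand setting, is not given in the sources used here. The deposited signal per gene is a count divided by a size factor, so the authors' values are normalized counts. At a tolerance of 0.05, 100% of these values were whole multiples of 1 read, which gave back the reads of 7 libraries. KO 1 and WT 1, whose step lies near 1, entered no count test.

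Groups were compared with limma 3.58.1 in R 4.3.3 on log2(normalized count + 1), in 15740 genes whose mean reached 10, with an intensity trend, 1 mean per group and no replicate block. Benjamini-Hochberg adjusted p-values below 0.05 were called. Fold changes on this scale understate those of low genes. Alternatives were count tests of the 7 libraries (edgeR 4.0.16, DESeq2 1.42.0), other pseudocounts, filters and scalings, only the groups compared, a replicate block and each library left out. The fits were tested on simulated data. The genes and lists were chosen with earlier results of these data known. Named were, per list and comparison, up to 4 called genes by absolute log2 fold change, the most abundant uncalled gene, and for each of the 9 genes the 3 with the highest Pearson's r. Slc26a4, P2ry6, Clca2, Bsnd, Slc4a3, Slc5a12 and the neighbours of Ano3 were named outside this rule, after their values were seen. Of the row names, 25 had turned into dates. Each library is a separate mouse, per the series design. Some genes that this rule names are not reported here, but they stay in the counts.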

Additional observations from a re-analysis of the deposited data

How the results depend on the processing

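No fold change of a named gene changed sign while called. Among fits of the 9 genes under the alternatives, 573 kept their side of the threshold, 6 newly passed it and 12 no longer did; among other named genes these were 1269, 8 and 109. Same-numbered mice of different groups had correlations of deviations between -0.142 and 0.215, and mice of unlike number between -0.23 and 0.173. These values show no pairing by number, but with 3 mice per group they cannot exclude one. With the replicate block the calls over all genes were 15 in double knockout against Pkd2 knockout, 20 in double knockout against wild type and 217 in Pkd2 knockout against wild type, in place of 62, 36 and 377; those among the 9 genes were 0 in Pkd2 knockout against wild type, and those among pathway genes were 5 there (Bsnd, Kcnn2, Slc12a1, Slc26a7 and Slc4a3) and 0 in double knockout against wild type.

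In double knockout against Pkd2 knockout the count over all genes was 31 with quantile normalization, where 48.4% of calls were higher against 32.3% without it, 26 with only these groups, 10 with edgeR, 149 with DESeq2, 11 with limma on the 7 libraries and 308 leaving out WT 3 and KO 3; pathway calls were 1 with a pseudocount of 10, 1 with DESeq2 (both Slc26a4) and 2 leaving out WT 3 and KO 3 (Clca2 and P2ry6). In double knockout against wild type the count was 10 with edgeR, 111 with DESeq2, 11 with limma on the 7 libraries and 111 leaving out WT 3 and KO 3; pathway calls were 0 with only these groups, edgeR or limma on the 7 libraries, and DESeq2 called 1 of the 9 genes. In Pkd2 knockout against wild type the count was 11 with edgeR and 13 with limma on the 7 libraries; of the 9 genes 0 were called without the trend, with edgeR or with limma on the 7 libraries and 2 with only these groups; pathway calls were 3 without the trend, 0 with edgeR, 3 with DESeq2 and 0 with limma on the 7 libraries.

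Leaving out 1 library at a time gave 8 to 154, 18 to 58 and 70 to 436 calls over all genes in double knockout against Pkd2 knockout, double knockout against wild type and Pkd2 knockout against wild type; 0 to 2, 0 to 1 and 1 to 12 pathway calls; and 0, 0 to 1 and 0 to 2 calls among the 9 genes. The fits on 7 libraries and without WT 3 and KO 3 were chosen after seeing the data; in the first, Pkd2 knockout and wild type have 2 mice each. The cause was not tested.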
